A study of Homo sapiens with 16 samples.

Results

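The keratin genes were followed through 4 phases of gemcitabine selection in T24, a human bladder cancer cell line. Members were the rows of the deposited expression table whose symbol is KRT, a number and at most a single letter A, B or C, and 44 of the 39007 rows matched. Keratin-associated protein genes and keratin pseudogenes were left out. Parental T24 cells, not taken through selection, formed phase P0. The GRC1 line, grown out of T24 through repeated gemcitabine exposure, was taken at the early phase P3, the intermediate phase P7 and the late phase P15. The titles of all 16 libraries, P0 and GRC1 alike, carry the letters NT. The paper neither explains NT nor says whether gemcitabine was present when the RNA was taken. Each phase had 4 libraries, 16 in all. Where the 4 values of a phase are listed, they follow the library numbers in the sample titles. Replicate names follow the numbers in the sample descriptions, which differ for most libraries. GRC1 is 1 resistant line sampled at successive phases, so the phase and the history of that line cannot be told apart. The labels do not say whether the 4 libraries of a phase came from separate cultures, and the p-values given here measure the spread between libraries, which may be technical.

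Keratins are the intermediate filament proteins of epithelial cells. Each filament is built from heterodimers of an acidic type I chain and a neutral to basic type II chain, and a chain without a partner is usually degraded. The simple epithelial keratins KRT7, KRT8, KRT18 and KRT19 are carried by the urothelium, the lining of the bladder, KRT5 and KRT14 mark basal cells, and KRT6, KRT16 and KRT17 are switched on in wounded or activated epithelium. The hair keratins, such as KRT81 and KRT86, are normally made in the hair shaft.

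Of the 44 keratins, 22 are type I, 21 are type II and 1, KRT222, is a keratin-like gene. The annotation placed 22 on chromosome 12 and 22 on chromosome 17. A mean above 1 CPM (read counts scaled to the same library total) over the 16 libraries was required for testing, and 11 keratins passed, 6 of type I and 5 of type II. These were 4 of the 6 simple epithelial keratins, 1 of the 3 basal keratins, 1 of the 4 activation keratins, 2 of the 10 suprabasal and other epithelial keratins, 0 of the 6 inner root sheath keratins and 3 of the 14 hair keratins. Another 8 keratins reached a mean of 0.2 CPM in at least 1 phase and are given by their values. Of the remaining 25, 7 were listed at 0 in every library and 18 were above 0 in at least 1, with KRT83 the highest at 0.223 CPM. KRT5, the main basal type II keratin, was among these 25 and did not exceed 0.057 CPM in any library, and KRT20, a marker of the superficial urothelial cells, did not exceed 0.0718 CPM.

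Some keratin genes are near copies of one another, so that short reads from a shared stretch cannot be given to one gene. KRT81 and KRT86 have 93.6% of their aligned coding bases in common. Of the 100-base windows of the KRT81 transcript, 29.4% also occur in KRT86, and 25% of the KRT86 windows occur in KRT81. For the activation keratins, the stretches shown are the 90 coding bases in which a pair differs most or least, read from GRCh38 at the exons of GENCODE 44, 5′ to 3′ on the coding strand, with capitals at the bases that differ from the partner.

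KRT16, KRT14 and KRT17 are shown because KRT16 and KRT17 were highest in the same phase. KRT16 and KRT14 share 88.6% of their coding bases, KRT16 and KRT17 share 79.3%, and KRT14 and KRT17 share 84.7%. KRT16 and KRT14 have a stretch with 0 differences in exon 1 (KRT16, chr17:41612284-41612373, and KRT14, chr17:41586436-41586525, both minus strand).
KRT16 and KRT14, shared: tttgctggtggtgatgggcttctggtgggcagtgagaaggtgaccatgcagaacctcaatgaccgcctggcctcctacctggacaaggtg
The most alike stretch of KRT16 and KRT17, also in exon 1 (KRT16, chr17:41612242-41612331, and KRT17, chr17:41624162-41624251, both minus strand), has 5 differences.
KRT16: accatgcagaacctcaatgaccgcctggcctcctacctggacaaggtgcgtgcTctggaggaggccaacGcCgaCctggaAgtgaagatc
KRT17: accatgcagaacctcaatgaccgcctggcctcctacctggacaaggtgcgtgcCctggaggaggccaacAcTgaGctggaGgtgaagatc
In exon 5, their most different stretch (KRT16, chr17:41610888-41610977, and KRT17, chr17:41621000-41621089, both minus strand) has 26 differences.
KRT16: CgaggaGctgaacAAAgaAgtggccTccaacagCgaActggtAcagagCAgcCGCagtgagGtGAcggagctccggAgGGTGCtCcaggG
KRT17: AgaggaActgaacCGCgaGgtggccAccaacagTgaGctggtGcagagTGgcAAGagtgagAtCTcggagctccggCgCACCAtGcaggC
Of the 100-base windows of the KRT16 transcript, 7.1% occur in another gene, against 0.4% for KRT17, so KRT17 was the better separated of the pair. KRT7, KRT18, KRT19, KRT10, KRT15 and KRT80 had 0% of their windows in another gene, and KRT8 had 7.1%, shared with KRT8 pseudogenes.

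The libraries held 33.8 to 50 M counts as estimated from the steps between low values, so 1 count was worth 0.02 to 0.0296 CPM. In every library 69.4 to 73.5% of the low values fell on even counts, so counts often came in pairs rather than as separate events. Intervals and floors below that rest on few counts do not allow for this. Some of the sample numbers that end the titles occur more than once, and 3 libraries of P3 and 3 of P15 were taken as a separate set. The titles name no such set, so this grouping is an assumption. A fit with that set as a covariate called 3, 3, 9 and 7 keratins in the comparisons of P3 with P0, P7 with P3, P15 with P7 and P15 with P0, against 3, 3, 8 and 7 without it. Of the markers fixed for other cell types, the 4 leukocyte genes summed to at most 0.198 CPM in any library. The 3 endothelial genes summed to 5.95 to 7.95 CPM at P0, 0.342 to 0.648 at P3, 0.198 to 0.820 at P7 and 0.515 to 1.08 at P15, with CDH5 at a mean of 5.69 CPM at P0 and 0.132 at P15. CDH5 passed the filter only through P0. The 6 fibroblast genes summed to 5.02 to 5.15 CPM at P0, 1.68 to 5.72 at P3, 4.89 to 5.77 at P7 and 43.98 to 49.2 at P15, where COL1A1 had a mean of 23.97 CPM and COL3A1, which passed the filter only through P15, one of 21.8 CPM, while DCN was listed at 0 and LUM had a mean of 0.0636 CPM. Of the 8 urothelial genes, UPK1B and UPK3A were at or near 0 in every phase. In order of phase, UPK1A had means of 0.0749, 0.267, 0.602 and 1.98 CPM, UPK2 of 0.840, 0.544, 0.544 and 0.593, and UPK3B of 0.312, 0.303, 0.293 and 0.487. None of these uroplakin genes was tested. GATA3, FOXA1 and PPARG had log2 changes of -3.93, -2.82 and -1.83 from P0 to P15 (limma, adjusted p = 3.1e-24, 1.4e-17 and 9.0e-21). CDH1, the epithelial cadherin, had a mean of 0.0409 CPM at P0 and 0.0484 CPM at P15, and the other 3 epithelial genes, EPCAM, ESRP1 and ESRP2, had changes of -1.82, -1.62 and -2.84 (adjusted p = 3.5e-13, 4.5e-12 and 2.7e-18), ESRP1 having passed the filter only through P0. Whether a change in the mixture of cells had a part in the keratin values was not tested. In bulk RNA, fewer cells that express a keratin and less of its RNA in each cell cannot be told apart.

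Keratin RNA as a whole was lowest at the end of selection. The summed level of the 44 keratins was 2402 ± 44.2 CPM at P0 (SD, n = 4), 2499 ± 56.8 at P3, 1826 ± 66.2 at P7 and 879 ± 34.7 at P15, which is 0.240, 0.250, 0.183 and 0.0879% of all counts. The P15 libraries, at 830 to 911 CPM, lay below the lowest library of every other phase. The type II chains made the difference, and their sum went from 1805 ± 46.0 CPM at P0 through 1886 at P3 and 1316 at P7 to 183 at P15. The type I sum was 596 ± 10.0 CPM at P0, 613 ± 16.3 at P3, 510 ± 22.4 at P7 and 697 ± 33.3 at P15. These sums are descriptions without a test.

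**Figure D1:**
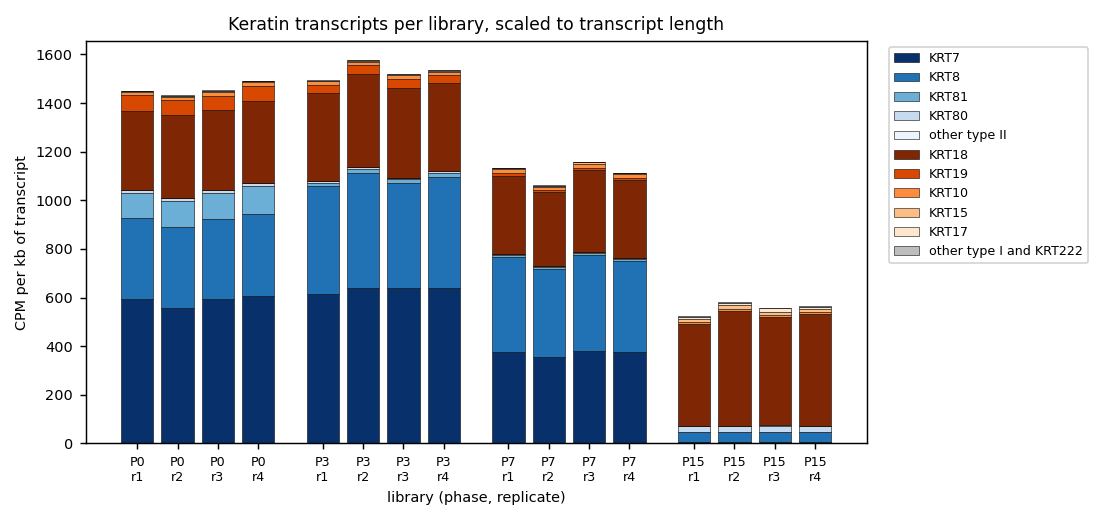
Keratin levels in each of the 16 libraries, in CPM per kilobase of transcript (vertical axis), stacked by gene with type II keratins in blue and type I keratins in orange and brown. In the 12 libraries of P0, P3 and P7 the type II chains make up most of each bar, while in the 4 libraries of P15 KRT18 holds a mean of 80.3% of the bar.

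Levels of different genes were compared per kilobase of the main annotated transcript. On this scale, type II keratins exceeded type I keratins 2.51-fold at P0 (± 0.086, n = 4), 2.6-fold at P3 (± 0.056) and 2.18-fold at P7 (± 0.032), and the ratio was 0.152 ± 0.0061 at P15. The 4 P15 libraries, at 0.145 to 0.159, stood far below those of the other phases, where the lowest was 2.13. KRT18 made up 22.9% of keratin CPM per kilobase at P0, 24.11% at P3, 28.7% at P7 and 80.3% at P15. KRT7 made up 40.4, 41.3, 33.3 and 1.27% in the same order, and KRT8 22.8, 29.5, 34.1 and 7.07%. At P0 the order was KRT7 with 588.7 CPM per kilobase, then KRT18 with 333.4 and KRT8 with 332.6, whose libraries overlapped at 325.9 to 342.1 and 326.8 to 336.0, and then KRT81 with 107.9 and KRT19 with 61.2. At P15 the order was KRT18 with 448.1, KRT8 with 39.4, KRT80 with 24.9, KRT15 with 14.9, KRT17 with 10.2, KRT10 with 7.98, KRT7 with 7.08 and KRT16 with 2.00. Of the KRT18 main transcript 375 bases lie in exons of KRT8, where reads may not have been assigned to KRT18. Its level per kilobase, and the shares and ratios that include it, are uncertain to that extent.

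**Figure D2:**
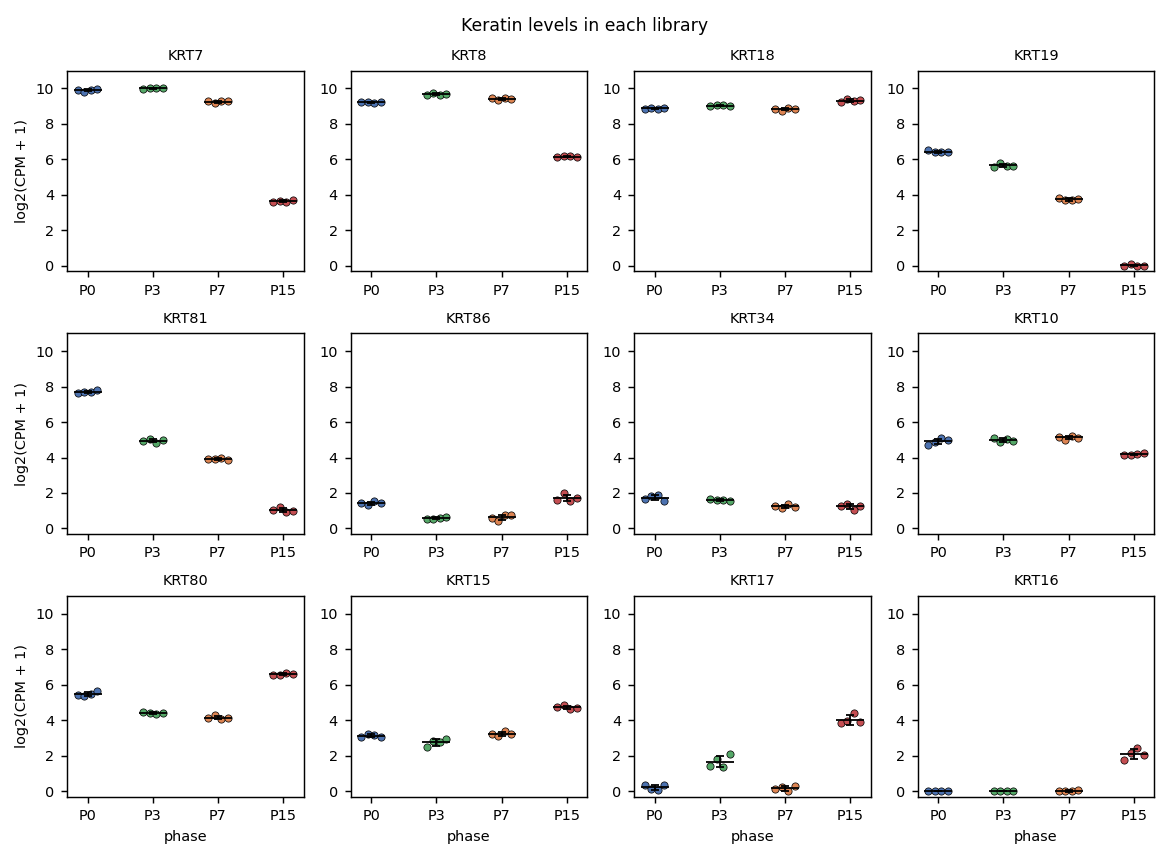
Levels of 12 keratins as log2(CPM + 1) (vertical axis) in the 4 libraries of each phase, P0, P3, P7 and P15 (horizontal axis), 1 point a library, with the mean as a line and the SD as a bar. KRT7, KRT8 and KRT19 drop at P15 while KRT18 stays between 8.75 and 9.38, and KRT17 and KRT16 reach means of 4.02 and 2.09.

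The simple epithelial keratins were the most abundant group. KRT7 (chr12:52232520-52252186, plus strand), the type II keratin of simple and transitional epithelia, had log2(CPM + 1) values of 9.82, 9.92, 9.95 and 9.92 at P0, 10.02, 9.97, 10.02 and 10.02 at P3, 9.17, 9.26, 9.26 and 9.28 at P7, and 3.59, 3.66, 3.73 and 3.59 at P15. Its libraries separated P7 from P3 and, much farther, P15 from P7. The mean level was 957 CPM at P0 and 11.5 CPM at P15, and KRT7 fell by 5.60 (SE 0.035) on the log2 scale from P7 to P15 and by 6.26 from P0 to P15 (limma on all 13249 tested genes, Benjamini-Hochberg adjusted p = 3.7e-33 and 6.3e-34). The step from P3 to P7 was -0.77, under the 2-fold limit (adjusted p = 9.6e-15).

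KRT8 (chr12:52897187-52949954, minus strand), the type II partner of KRT18, had 9.23, 9.21, 9.23 and 9.19 at P0, 9.73, 9.62, 9.68 and 9.60 at P3, 9.34, 9.45, 9.39 and 9.46 at P7, and 6.15, 6.20, 6.11 and 6.16 at P15. The P15 libraries lay below all others, and the first 3 phases spanned little more than 0.5 on the log2 scale. KRT8 fell by 3.26 (SE 0.033) from P7 to P15 and by 3.06 from P0 to P15 (limma, adjusted p = 2.0e-29 and 8.0e-29). From P0 to P3 it was higher by 0.44, under the 2-fold limit (adjusted p = 2.5e-11).

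KRT18 (chr12:52948871-52952906, plus strand), the type I partner of KRT8, had 8.92, 8.85, 8.90 and 8.86 at P0, 9.08, 9.0, 9.0 and 9.04 at P3, 8.75, 8.83, 8.82 and 8.90 at P7, and 9.21, 9.38, 9.34 and 9.30 at P15. Its P15 libraries were above those of every other phase. The difference from P0 was 0.42 and from P7 0.48 (SE 0.036), both under the 2-fold limit (limma, adjusted p = 7.4e-11 and 5.9e-12). Within a library, KRT8 minus KRT18 was 0.33 ± 0.021 at P0, 0.63 ± 0.051 at P3, 0.59 ± 0.026 at P7 and -3.15 ± 0.072 at P15 (SD, n = 4, differences of log2 levels not scaled to length), so KRT8 was the higher of the pair in the first 3 phases and the lower at P15. The 2 genes lie side by side on opposite strands, and 525 bases of their annotated exons overlap. The strand setting of the counting is not given in the sources used here, so reads in that overlap cannot be assigned to either gene. Of the KRT18 main transcript 375 bases lie in exons of KRT8, and 0 bases of the KRT8 main transcript lie in exons of KRT18.

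KRT19 (chr17:41523617-41528308, minus strand), the smallest type I keratin, without a tail domain, had 6.41, 6.51, 6.40 and 6.39 at P0, 5.81, 5.58, 5.62 and 5.62 at P3, 3.68, 3.83, 3.75 and 3.68 at P7, and 0, 0.07, 0 and 0 at P15. The 4 phases did not overlap, each being below the one before. KRT19 fell by 1.92 (SE 0.060) from P3 to P7 and by 3.72 from P7 to P15 (limma, adjusted p = 7.3e-18 and 2.5e-25), while the step from P0 to P3 was -0.77 (adjusted p = 5.4e-11). At P15 only 2 counts were found among 164 M, both in 1 library. The CPM of P0 over that of P15 was 6961 (95% interval 1927 to 57482). That interval covers counting error only and treats each count as a separate event, so it is likely too narrow. The fitted change from P0 to P15, -6.41, ran from -9.59 to -4.17 with other pseudocounts and settings, since the P15 level is near 0. The remaining simple epithelial keratins, KRT20 and KRT23, did not exceed 0.157 CPM in any library.

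The 5 keratins of basal and activated epithelium given here were highest at P15. KRT16, KRT6B and KRT14 reached the mean of 0.2 CPM needed to be named only at P15, so for them this is a description. KRT17 (chr17:41619442-41624842, minus strand), a type I keratin of wounded epithelium and of hair follicles, had 0.15, 0.34, 0.35 and 0.08 at P0, 1.80, 1.43, 2.09 and 1.38 at P3, 0.21, 0.14, 0.27 and 0 at P7, and 3.84, 3.95, 3.89 and 4.40 at P15. It was above P0 at P3, overlapped P0 again at P7, and was highest at P15, where no library overlapped another phase. KRT17 rose by 1.45 (SE 0.14) from P0 to P3, fell by 1.52 in the step to P7, and rose again by 3.87 at P15 (limma, adjusted p = 2.1e-09, 1.9e-09 and 2.2e-18). The mean CPM was 0.177, 2.26, 0.116 and 15.4 in order of phase. As the low phases are near 0, the fitted changes depended on the pseudocount and ran from 0.48 to 3.13, from -3.51 to -0.50 and from 1.99 to 6.26 over the alternatives. KRT17 passed the filter on its P15 values alone, so its tests are descriptions.

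KRT16 (chr17:41609778-41615899, minus strand), the type I wound keratin that pairs with KRT6, was listed at 0 in all 8 libraries of P0 and P3 and in 3 libraries of P7, with 0.07 in the other, and had 1.76, 2.14, 2.02 and 2.44 at P15. The P15 mean of 3.32 CPM was at least 39.9-fold higher than P0 (against a floor of 3 counts per library), and the P15 over P7 ratio was 269 (95% interval 74.3 to 2218, from 2 counts at P7). Those 2 counts lay in 1 library and were treated as separate events, so the interval is likely too narrow. KRT16 did not pass the filter. KRT6B (chr12:52446651-52452146, minus strand), a type II wound keratin, was above 0 in 1 of the 12 libraries before P15, at 0.07, and had 0.26, 0.55, 0.39 and 0.88 at P15, where its mean of 0.453 CPM was at least 5.45-fold higher than P0. Its coding sequence is 97.5% identical to that of KRT6A, which did not exceed 0.110 CPM, so that reads of the pair are hard to part.

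KRT15 (chr17:41513745-41522529, minus strand), a type I keratin of basal cells, had 3.23, 3.04, 3.08 and 3.16 at P0, 2.82, 2.49, 2.92 and 2.77 at P3, 3.13, 3.23, 3.21 and 3.38 at P7, and 4.74, 4.85, 4.67 and 4.65 at P15. The P15 libraries were above all others, and those of P3 below all others. KRT15 rose by 1.49 (SE 0.082) from P7 to P15 and was 1.6 above P0 (limma, adjusted p = 1.5e-14 and 3.9e-15). KRT14 (chr17:41582279-41586895, minus strand), the type I basal partner of KRT5, had 0.38, 0.13, 0.44 and 0.45 at P15 and was at 0 in 11 of the 12 earlier libraries, with 0.07 in 1 library of P3. Its P15 mean of 0.280 CPM was at least 3.36-fold higher than P0, and 6.1% of its 100-base windows occur in other genes. The type II chains that usually pair with these type I keratins, KRT5 with KRT14 and KRT15 and KRT6A or KRT6B with KRT16 and KRT17, stayed below 1 CPM in every library.

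Of the 10 suprabasal and other epithelial keratins, KRT80 and KRT10 passed the filter. KRT80 (chr12:52168996-52192014, minus strand), a type II keratin found at the cell margin near desmosomes, had 5.37, 5.45, 5.66 and 5.49 at P0, 4.39, 4.48, 4.41 and 4.35 at P3, 4.28, 4.14, 4.13 and 4.06 at P7, and 6.57, 6.53, 6.64 and 6.69 at P15. It was lower at P3 and P7 than at P0 and highest at P15, with no overlap between P0, P15 and the middle phases. KRT80 fell by 1.08 (SE 0.057) from P0 to P3 and rose by 2.46 from P7 to P15 (limma, adjusted p = 4.1e-14 and 4.3e-22), ending 1.11 above P0 (adjusted p = 4.1e-15). Among the type II keratins that passed the filter, it was the 1 with a P15 level at least 2-fold above P0.

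KRT10 (chr17:40818117-40822614, minus strand), the type I keratin of differentiating skin layers, had 4.90, 4.70, 4.96 and 5.08 at P0, 4.86, 5.10, 4.91 and 5.05 at P3, 5.01, 5.17, 5.12 and 5.23 at P7, and 4.13, 4.15, 4.24 and 4.19 at P15. The first 3 phases overlapped and P15 lay below them. The P15 level was 0.73 below P0 and 0.96 below P7 (SE 0.068), under the 2-fold limit (limma, adjusted p = 4.6e-10 and 2.7e-12). KRT10 overlaps KRT10-AS1 on the opposite strand, and its reads and those of that gene cannot be told apart without strand. The same limit holds where KRT7 overlaps KRT7-AS and KRT87P and where KRT17 overlaps ENSG00000289252. KRT86 overlaps ENSG00000285102 on the same strand and other genes on the opposite strand, and KRT15 overlaps MIR6510 on the same strand. KRT78, an epithelial type II keratin, had 0.80, 0.66, 0.92 and 0.95 at P0 and at most 0.36 in the other 12 libraries, and KRT79, a type II keratin of sebaceous ducts, had a mean of 0.290 CPM at P0 and 0.0653 at P15. Neither passed the filter, and both reached the 0.2 CPM needed to be named only at P0, so their lower later values are a description.

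KRT81 was the most abundant hair keratin at P0, P3 and P7. KRT81 (chr12:52285913-52291534, minus strand), a type II keratin of the hair cortex, had 7.68, 7.64, 7.80 and 7.71 at P0, 5.04, 4.92, 5.00 and 4.82 at P3, 3.91, 3.89, 3.88 and 3.98 at P7, and 1.04, 1.22, 1.01 and 0.92 at P15. Each phase lay below the one before it without overlap. KRT81 changed by -2.76 (SE 0.062) from P0 to P3, by -1.03 from P3 to P7 and by -2.87 from P7 to P15 (limma, adjusted p = 5.0e-21, 1.6e-12 and 1.0e-22). Its mean went from 208 CPM at P0 to 29.9, 14.1 and 1.07 CPM, a change of -6.66 from P0 to P15 (adjusted p = 4.6e-30). Without P3 replicate 2, the library at 5.04, the step from P3 to P7 was -0.998, just short of 2-fold.

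KRT86 (chr12:52249300-52309163, plus strand), the near copy of KRT81, had 1.30, 1.44, 1.43 and 1.52 at P0, 0.56, 0.51, 0.64 and 0.57 at P3, 0.44, 0.59, 0.74 and 0.76 at P7, and 1.63, 1.98, 1.70 and 1.56 at P15. The libraries of P3 and P7 overlapped and were below those of P0 and P15. KRT86 rose by 1.08 (SE 0.10) from P7 to P15 (limma, adjusted p = 4.9e-10), and without P15 replicate 2 this was just under the 2-fold limit on the log2(CPM + 1) scale. That scale understates its changes, as its mean CPM was 1.68, 0.485, 0.556 and 2.31 in order of phase. It passed the filter only with its P15 libraries, which are part of the change tested, so this call is a description. It was 0.30 higher at P15 than at P0 (adjusted p = 0.010), and without P15 replicate 2 the adjusted p was 0.062. Within a library, KRT81 minus KRT86 was 6.29 ± 0.10 at P0, 4.38 ± 0.097 at P3, 3.28 ± 0.14 at P7 and -0.67 ± 0.073 at P15 (SD, n = 4, not scaled to length). Because of the windows that KRT86 shares with KRT81, its low counts are uncertain in phases where KRT81 was high. KRT34 (chr17:41377669-41382306, minus strand), a type I hair keratin, ranged from 1.57 to 1.91 at P0, 1.56 to 1.68 at P3, 1.16 to 1.35 at P7 and 1.04 to 1.38 at P15. It was 0.50 lower at P15 than at P0 (adjusted p = 3.8e-05), under the 2-fold limit. KRT32, another type I hair keratin, stayed at or below 0.51 in every library.

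**Figure D3:**
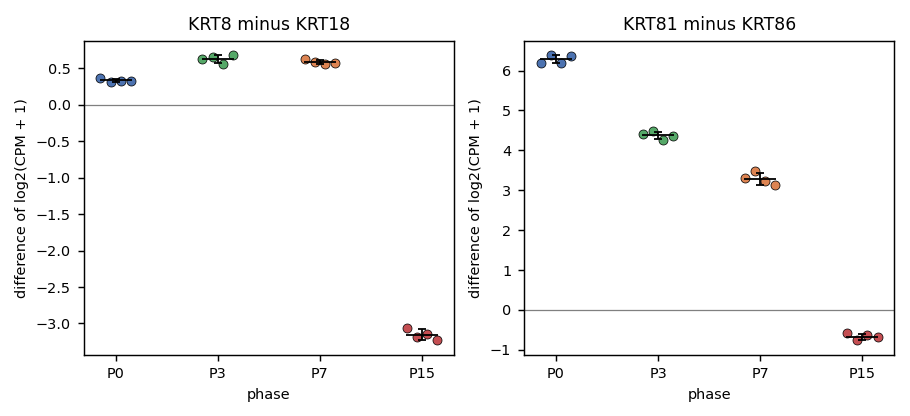
Difference between the log2(CPM + 1) levels of 2 keratins in the same library (vertical axis) by phase (horizontal axis), for KRT8 minus KRT18 and KRT81 minus KRT86, 1 point a library, with the mean as a line and the SD as a bar. Both differences are above 0 in the 12 libraries of P0, P3 and P7 and below 0 in the 4 of P15.

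Of the inner root sheath keratins, KRT27, a type I chain, had means of 0.320, 0.135 and 0.365 CPM at P0, P3 and P7 and was listed at 0 in the 4 libraries of P15, where P0 was at least 4.33-fold higher than the floor of 3 counts per library. KRT222 was likewise at 0 at P15 and at 0.272 CPM at P0, at least 3.68-fold above that floor. All 6 inner root sheath keratins were at 0 at P15, but their sum was at most 0.636 CPM in any library.

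Between P0 and P3, the first step of selection, 1 of the 11 tested keratins rose (KRT17) and 2 fell (KRT81 and KRT80), with an adjusted p under 0.05 and a change of at least 2-fold. Of all 13249 genes tested 4.46% passed the same rule, 1.95% higher and 2.51% lower. Among the 9 keratins above 1 CPM in both phases, 2 were called. The median change of the 11 was -0.12 against -0.03 over all genes. KRT86 (-0.85, adjusted p = 9.2e-08), KRT19, KRT8, KRT15 (-0.38, adjusted p = 2.9e-04), KRT18 (0.15, adjusted p = 9.0e-04) and KRT7 (0.11, adjusted p = 0.011) differed by less than 2-fold on the log2(CPM + 1) scale. For KRT86 that scale understates the change, as its mean CPM was 3.47-fold lower at P3, at 0.485 against 1.68. KRT34 and KRT10 missed an adjusted p of 0.05 (0.26 and 0.37). The libraries did not overlap for 9 keratins, as for 60.1% of all genes, while 68.7% had an adjusted p under 0.05. With quantile normalization the adjusted p of KRT7 was 0.53. The counts of keratins called, here and in the other comparisons, include KRT17 and KRT86, which passed the filter only through P15, and are descriptions.

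Between P3 and P7, 3 of the 11 keratins fell (KRT19, KRT17 and KRT81) and 0 rose by this rule in limma, against 0.845% lower and 0.989% higher, 1.83% in all, among the 13249 genes. Of the 9 keratins above 1 CPM in both phases 2 were called. The median keratin change was -0.26 and that of all genes 0.01. With an adjusted p under 0.05 but less than 2-fold, KRT7, KRT34 (-0.37, adjusted p = 0.0018), KRT80 (-0.26, adjusted p = 5.5e-04), KRT8 (-0.25, adjusted p = 8.4e-07) and KRT18 (-0.20, adjusted p = 3.5e-05) were lower and KRT15 (0.49, adjusted p = 2.1e-05) was higher. The libraries of 9 keratins did not overlap, as for 51.9% of all genes, and 58.2% of all genes had an adjusted p under 0.05, as had 9 of the keratins.

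Between P7 and P15, 4 keratins rose (KRT17, KRT80, KRT15 and KRT86) and 4 fell (KRT7, KRT19, KRT8 and KRT81), and KRT10, KRT18 and KRT34 did not reach 2-fold. Over all genes 25.5% passed, 13.4% higher and 12.1% lower. Of the 8 keratins above 1 CPM in both phases 5 were called. The median change was -0.0025 for the keratins and 0.055 for all genes. By type, 3 of the 4 that fell were type II and 2 of the 4 that rose were type I. The P7 and P15 libraries did not overlap for 10 of the 11, and for 80.8% of all genes, and 10 keratins and 86.4% of all genes had an adjusted p under 0.05.

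From P0 to P15, 3 of the 11 rose (KRT17, KRT15 and KRT80) and 4 fell (KRT81, KRT19, KRT7 and KRT8), against 23.6% of all genes, 12.1% higher and 11.4% lower. Of the 9 keratins above 1 CPM in both phases 5 were called. The median was -0.50 for the keratins and 0.04 for all genes. The comparisons share libraries, so they are not separate evidence. All 11 had an adjusted p under 0.05 and libraries that did not overlap, as had 86.2% and 79.7% of all genes.

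**Figure D4:**
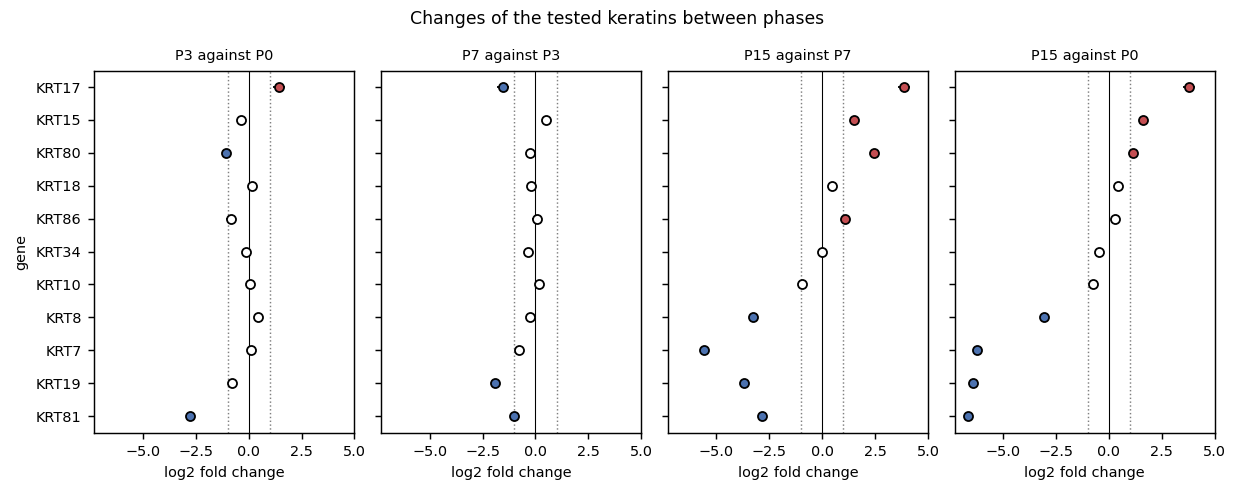
Fitted log2 fold change (horizontal axis) of the 11 tested keratins (vertical axis) in 4 comparisons of phases. Bars reach 2 SE to each side, and dotted lines mark a 2-fold change. Filled points passed an adjusted p of 0.05 and 2-fold (red higher, blue lower), and the P15 comparisons have 8 and 7 filled points against 3 in each of the earlier steps.

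Of 15 intermediate filament genes outside the family, 7 were tested, and from P0 to P15 2 rose and 1 fell. By the same rule 12.1% of all tested genes rose and 11.4% fell. VIM, vimentin of mesenchymal cells, had a mean of 45.1 CPM at P0, 177.0 at P3, 512.9 at P7 and 1531 at P15, and rose by 5.06 (SE 0.034) on the log2 scale (limma, adjusted p = 1.1e-32). BFSP1, a lens beaded filament protein, rose by 1.52 (adjusted p = 2.1e-11) and LMNB1, a nuclear lamin, fell by 1.06 (adjusted p = 1.3e-18). At P0 the summed keratins exceeded VIM in CPM, and at P15 VIM exceeded the summed keratins, on a scale not adjusted for length.

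Of 14 genes for linkers and partners of keratin filaments, 12 were tested, and 2 rose and 3 fell from P0 to P15. Over all tested genes 12.1% rose and 11.4% fell by the same rule. PPL, periplakin, which ties keratins to desmosomes, rose by 2.41 (limma, adjusted p = 3.7e-15) and so did PKP2, a desmosomal plakophilin, by 1.26 (adjusted p = 1.4e-16). PKP3, another plakophilin, fell by 2.02 (adjusted p = 9.5e-21), JUP, plakoglobin, fell by 1.54 (adjusted p = 1.6e-19) and FAM83H, which guides keratin organization, fell by 1.34 (adjusted p = 2.6e-18). In the steps from P0 to P3, P3 to P7 and P7 to P15, 0, 0 and 2 of the 12 rose and 1, 0 and 3 fell. Among all tested genes 1.95, 0.989 and 13.4% rose in these steps and 2.51, 0.845 and 12.1% fell.

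Of 17 transcription factors known to act on keratin genes, 11 were tested, and 3 rose and 2 fell from P0 to P15. The shares of all tested genes were 12.1% higher and 11.4% lower. TFAP2A, an AP-2 factor of the epidermis, rose by 3.32 (SE 0.049), from 15.7 to 165.4 CPM (limma, adjusted p = 5.4e-26), JUNB, an AP-1 subunit, by 2.05 (adjusted p = 1.1e-18) and KLF4, a differentiation factor of stratified epithelia, by 1.81 (adjusted p = 3.8e-21). TFAP2C, the AP-2 relative, fell by 2.08 (adjusted p = 1.9e-22). EHF, an epithelial ETS factor, is the other gene that fell, from a mean of 4.28 CPM at P0 to 0.164 at P15, but it passed the filter only through P0, so its fall is a description. TP63, the master factor of basal cells, had a mean of at most 0.0699 CPM in any phase. Of 11 cornified envelope genes in the table, 1 was tested, CNFN, which was 0.41 higher at P15 and did not reach 2-fold (adjusted p = 8.6e-04, having passed the filter only with its P15 libraries), and IVL, involucrin, was listed at 0 in all libraries.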

How the data were processed

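RNA from 16 libraries, 4 per phase, was sequenced, and per the labels and the paper's methods the authors aligned reads to GRCh38 with STAR (version 2.6.1a in the submitters' processing notes), counted genes with featureCounts and deposited log2(CPM + 1) per gene symbol with 2 decimals. Quantile normalization and median centring are also named in the methods, but the deposited table shows neither. Strand and multiple-mapping settings are not given in the sources used here.

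Depth was estimated from the spacing of low values, 33.8 to 50 M counts per library. A single limma fit (version 3.58.1, R 4.3.3) with a variance trend took all 16 libraries, with each phase as a coefficient. It covered the 13249 genes whose mean exceeded 1 CPM, and p-values were adjusted over all of them by Benjamini-Hochberg. A change was called at an adjusted p under 0.05 and 2-fold, and a log2(CPM + 1) change understates that of low genes. SE is the fit's standard error. The script was tested on simulated data. Every tested keratin is named, as are those with a mean of 0.2 CPM in a phase and at most 4 called genes of each other list, taken by the size of the P15 against P0 change. Members and lists were chosen with earlier results of these data known. Coordinates, lengths and coding sequences are those of GENCODE 44 on GRCh38, main (MANE) transcripts, which matched all 44 keratins. The counting annotation may differ. Tables and figures used Python 3.11.15. The alternatives were other filters, pseudocounts, normalizations, thresholds, blocks and left-out libraries.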

Additional observations from a re-analysis of the deposited data

Results flagged for a closer look

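In 52 groups of 4 libraries (the named keratins in phases with a mean of at least 0.2 CPM), 2 had a library set apart, where chance alone gives about 1 in 20, or 2.6. KRT7 in P3 replicate 1 was low, at 9.97 against 10.02 in each of the other 3 libraries, so that its gap took all of the range (ratio 1.0), in values rounded to 2 decimals. KRT19 in P0 replicate 1 was high, at 6.51 against 6.39 to 6.41 (ratio 0.83).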

How the results depend on the processing

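The 21 called keratin changes kept their direction and an adjusted p under 0.05 in all 604 repeats under other settings. Many of these repeats left the fitted change itself the same, so its direction could not turn in them. These were other filters, replicate blocks and variance models, and leaving out a library of a phase not compared. The number of repeats is therefore no measure of how firm a change is. With a pseudocount of 5, which shrinks changes of low genes, 1 keratin was called in P3 against P0 (KRT81) and 1 in P7 against P3 (KRT19). With no fold threshold 9, 9 and 11 were called in P3 against P0, P7 against P3 and P15 against P0. Leaving out 1 library gave 3 in P3 against P0, 2 to 3 in P7 against P3 (2 without P3 replicate 2), 7 to 8 in P15 against P7 (7 without P15 replicate 2) and 7 in P15 against P0. Changes near 0 turned in sign: KRT10 in P3 against P0 was -0.0137 with a covariate for the sets assumed from the sample numbers, and KRT34 in P15 against P7 was 0.0213 with it and from -0.0492 to 0.0642 with 1 library left out (0.0033, 0.0333 and 0.0642 without P7 replicate 1, P7 replicate 3 or P15 replicate 3). That covariate gave 3, 3, 9 and 7 calls, KRT10 being the added one in P15 against P7, and with it KRT86 in P15 against P0 had an adjusted p of 0.10 and KRT7 in P3 against P0 of 0.13 (0.17 and 0.53 with quantile normalization). Quantile normalization gave a keratin sum of 2480.0 CPM at P0. Same-numbered libraries showed little correlation of their deviations from the phase means (-0.15 to 0.22), which cannot settle whether they were paired. A replicate block gave 3, 3, 8 and 7 calls, as without it, while KRT10 in P7 against P3 had an adjusted p of 0.045. Depth limits statements on keratins below about 0.1 CPM.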
